A study of Mus musculus with 76 samples.

Results

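The step from fraction S0 to fraction S1 in wild-type mouse fetal liver was described across all genes. It was defined by its libraries: every wild-type (WT) library of S1 was set against every WT library of S0, in both mouse lines of the series, with the line as a covariate. That gave 12 of the 76 libraries, 3 per line and fraction. Within each group a pair of libraries agreed within sampling noise (chi-square per degree of freedom 1.12 to 1.19 over genes, against 10.4 to 149 for the other pairs), so each such pair was summed and counted as 1 sample. The comparison therefore rests on 8 samples, 4 per fraction: in the DIS3 line replicates 1 and 3 summed (written 1-3) and replicate 2, and in the EXOSC10 line replicate 1 and replicates 2 and 3 summed (2-3).

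All embryos were of strain C57BL/6NJ at embryonic day 14.5 and are labelled WT. They are the wild types of lines named for the genes DIS3 and EXOSC10, whose knockouts were not used here, and the labels name no Cre driver or allele for them. Liver cells were sorted on the surface proteins CD71 and Ter119 into fractions that the labels order from immature to mature, of which S0 is the first and S1 the next. Total RNA was sequenced with a stranded kit after depletion of ribosomal RNA. The labels do not say whether replicates came from separate embryos, so a p-value measures only the spread between these samples, which may be technical.

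At this age the fetal liver is the main site of red cell formation, and it also holds blood stem cells and progenitors of the white cell and platelet lineages. CD71 is the transferrin receptor, which imports iron, and Ter119 is a surface antigen of maturing red cells. In the scheme in which these fraction names are commonly used, S0 is a mixture of early progenitors of several lineages, and S1 is made mostly of erythroid progenitors that divide rapidly and need erythropoietin to survive. Tfrc encodes CD71, so its rise is given as a description only.

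The 12 libraries had totals of 7.49 to 19.1 M counts (M, 1e6 counts; median 14.0 M), and the 8 samples 7.49 to 34.3 M. The predicted genes Gm26917 and Gm42418 took 25.7% to 50.7% of a sample's counts. Xist lay at 819 to 960 CPM and the Y-linked Ddx3y at 31.4 to 48.8 CPM in the 4 DIS3 samples, whereas the EXOSC10 samples had 2229 to 2626 CPM of Xist and at most 0.135 CPM of Ddx3y. These Xist and Ddx3y values are per 1e6 of a sample's total counts, without scaling. All other CPM are counts per 1e6 counts after TMM scaling of the library sizes, over these 8 samples unless all 5 fractions are named. On a multidimensional scaling plot of the samples the first axis, 78.5% of the variance, separated S0 from S1 in all 8 samples, and the second, 7.42%, separated the lines.

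Of 15970 genes tested, 10491 changed at an adjusted p under 0.05 (edgeR's quasi-likelihood test, Benjamini-Hochberg adjustment over all genes tested). 4490 were higher in S1, 28.1% of the genes tested, and 6001 were lower, 37.6%. Because so many genes passed, changes were also tested against a 2-fold size (log2 change of 1). By that 2-fold test 666 genes rose, 4.17%, and 3264 fell, 20.4%. The samples of S0 and S1 did not overlap in CPM in 4018 genes that were higher in S1 and 5390 that were lower. Separate fractions were thus common among the 15970 genes, and do not set a single gene apart. Log2 values are S1 over S0 with their standard error, and the median over all genes was -0.06. Since these are bulk samples on a relative scale, fewer cells of a type and less RNA per cell cannot be told apart.

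**Figure D1:**
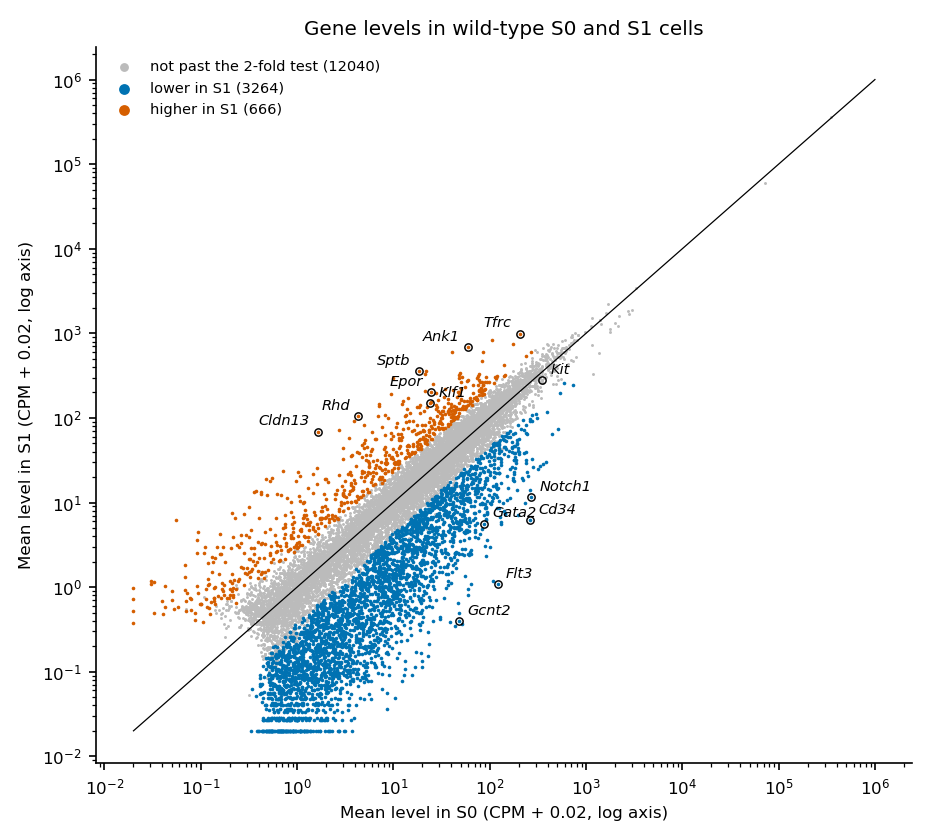
Mean level of each of the 15970 genes tested in 4 S0 samples (x axis) and 4 S1 samples (y axis), in CPM plus 0.02 on log axes; the line marks equal levels. Blue points, 3264 genes, fell and orange points, 666 genes, rose past the 2-fold test. The losses reach below 1 CPM for genes such as Gcnt2, and the rises lead to genes such as Sptb, Ank1 and Tfrc.

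The 10 protein-coding genes with the largest rise included red cell membrane proteins and transporters. They were picked among genes past the 2-fold test, with at least 20 CPM and no overlap between fractions, so their separation was set by the choice. In every sentence that gives 4 values per fraction, they stand in the order DIS3 1-3, DIS3 2, EXOSC10 1 and EXOSC10 2-3. Cldn13, a claudin, measured 1.03, 1.26, 1.23 and 2.94 CPM in S0 and 69.03, 65.8, 64.5 and 75.8 CPM in S1. The 4 S1 samples lay close together, and the log2 change was 5.33 ± 0.21 (adjusted p = 7.10e-09). Rhd, the Rh blood group protein, measured 2.23, 3.49, 4.38 and 7.06 CPM in S0 and 99.5, 102, 99.7 and 122 CPM in S1, and Rhag, its partner in the membrane and an ammonium transporter, 4.88, 4.25, 13.1 and 15.5 CPM in S0 and 190.0, 192, 187 and 198 CPM in S1. For both genes the S0 samples of the EXOSC10 line were higher than those of the DIS3 line, and the log2 changes were 4.63 ± 0.21 and 4.47 ± 0.28. Sptb, the beta chain of red cell spectrin, measured 12.1, 11.4, 24.3 and 25.2 CPM in S0 and 356, 349, 349 and 374 CPM in S1, a log2 change of 4.37 ± 0.19. Among the rest, the mean of Tmem56 went from 9.88 to 299.7 CPM, that of Abcg4, a sterol transporter, from 3.85 to 92.1 CPM, and that of Slc30a10, a manganese exporter, from 7.06 to 147 CPM. Pkhd1l1, Nxpe2 and the tetraspanin Tspan15 went from 2.71 to 72.6 CPM, from 7.005 to 140.0 CPM and from 0.994 to 22.9 CPM.

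The 10 with the largest fall, picked by the same rule, included genes known from stem cells, early progenitors and platelets. Flt3, the receptor of a cytokine for multipotent and lymphoid progenitors, measured 127, 118, 123 and 114 CPM in S0 and 0.944, 0.415, 1.76 and 1.12 CPM in S1, a log2 change of -6.79 ± 0.15 (adjusted p = 5.05e-10). Mycn, a MYC family factor, measured 50.9, 40.3, 56.5 and 60.1 CPM in S0 and 0.456, 0.415, 0.251 and 0.245 CPM in S1, and Hoxa9, a homeobox factor of stem cells, 24.7, 18.6, 23.9 and 23.7 CPM in S0 and 0.0325, 0.692, 0.251 and 0.109 CPM in S1. All S1 samples of these 3 genes lay below 2 CPM. Gcnt2, a glycosyltransferase that branches the I blood group antigen, fell from 47.9 to 0.377 CPM, Slc35d3, a nucleotide-sugar transporter, from 20.03 to 0.0931 CPM, and St8sia1, a sialyltransferase, from 22.9 to 0.133 CPM. Pear1 and Mmrn1, both known from platelets and endothelium, fell from 43.1 to 0.329 CPM and from 30.3 to 0.418 CPM. Mn1, a transcriptional co-regulator, and the receptor gene Gpr171 fell from 47.6 to 0.475 CPM and from 23.6 to 0.1902 CPM.

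The receptors through which the cells read their surroundings changed almost in one direction. Of 27 cytokine and growth factor receptors measured, 24 fell, 18 of them past the 2-fold test, and 1 rose, with a median log2 change of -2.91. The 1 that rose was Epor, the erythropoietin receptor, at 16.4, 15.4, 28.3 and 38.03 CPM in S0 and 188, 203, 205 and 204 CPM in S1. The log2 change was 3.09 ± 0.19 (adjusted p = 1.42e-07), no S1 sample overlapped with S0, and within S0 the EXOSC10 samples were above the DIS3 samples. Il7r, the receptor of a lymphoid cytokine, measured 21.1, 21.8, 20.6 and 17.6 CPM in S0 and 0.163, 0.415, 1.17 and 0.982 CPM in S1, a log2 change of -4.93 ± 0.32. It fell in every S1 sample to a small share of the lowest S0 value. Csf1r, the macrophage growth factor receptor, measured 132, 127, 62.7 and 40.6 CPM in S0 and 7.49, 2.21, 9.79 and 6.08 CPM in S1, and Csf2rb, the beta chain shared by the receptors of GM-CSF, interleukin 3 and interleukin 5, 104, 107, 62.7 and 43.9 CPM in S0 and 10.5, 6.78, 13.3 and 7.75 CPM in S1. In S0 both were higher in the DIS3 than in the EXOSC10 samples, and in S1 all samples were low, with log2 changes of -3.60 ± 0.36 and -2.95 ± 0.25.

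Kit, the stem cell factor receptor, kept most of its level. It measured 314, 338, 350.0 and 408 CPM in S0 and 268, 277, 287 and 277 CPM in S1, a log2 change of -0.34 ± 0.06 (adjusted p = 7.70e-04), so the S1 samples lay below all S0 samples by a small margin. In the DIS3 line alone it did not pass the test. Igf1r and Notch2 did not pass the test, with log2 values of 0.05 ± 0.05 and -0.02 ± 0.05. Tfrc, whose product CD71 was a sort marker, measured 184, 176, 241 and 222 CPM in S0 and 920.2, 959.6, 1003 and 1075 CPM in S1.

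**Figure D2:**
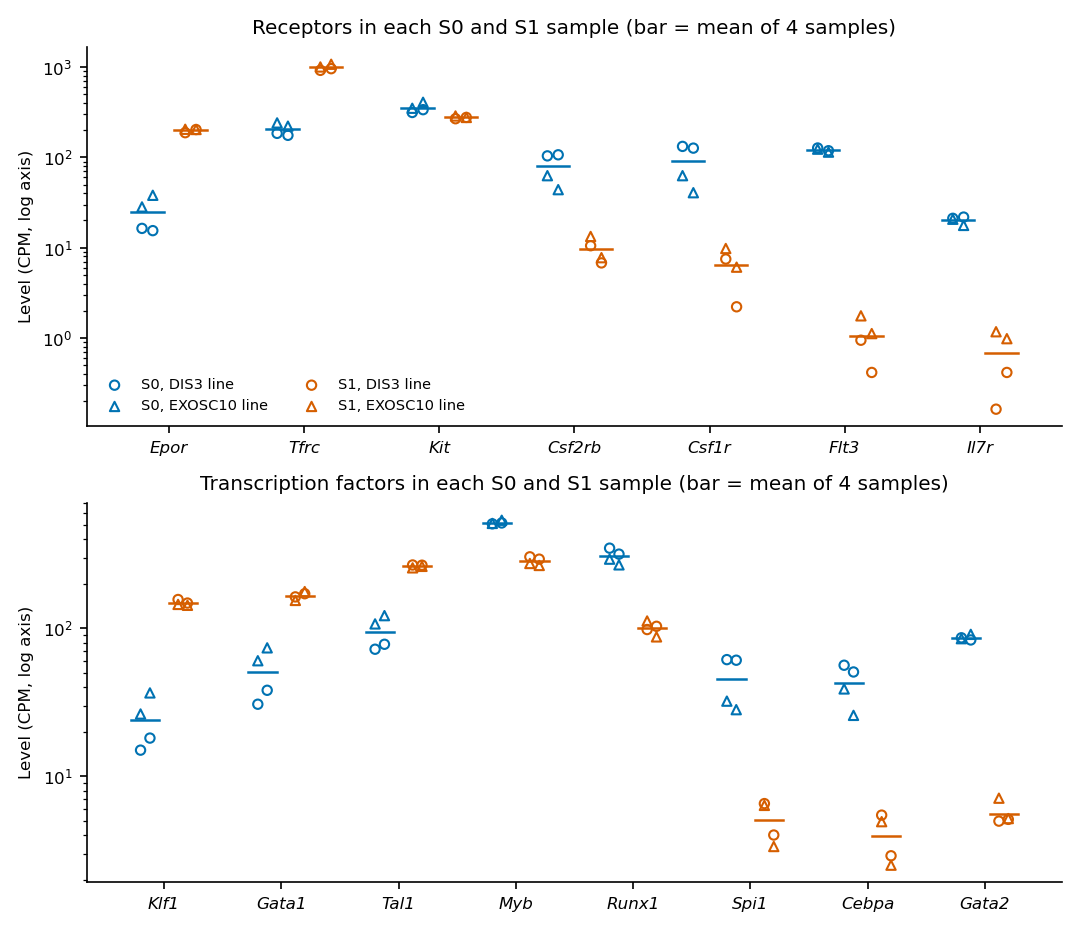
Level in CPM (log axis) of 7 receptors and 8 transcription factors in each of the 4 S0 samples (blue) and 4 S1 samples (orange); circles are the DIS3 line, triangles the EXOSC10 line, and bars the mean of 4 samples. Epor, Tfrc, Klf1, Gata1 and Tal1 were higher in S1, Kit and Myb fell by less than 2-fold, and the others fell further, Flt3 and Il7r to around 1 CPM.

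Of 23 genes of the erythropoietin receptor pathway, 7 rose (30.4%) and 10 fell (43.5%), near the 28.1% and 37.6% of all genes. Past the 2-fold test the shares were larger than those of all genes: 4 rose (17.4%, against 4.17%) and 7 fell (30.4%, against 20.4%). Besides Epor, those with the largest rise were Podxl, the sialomucin podocalyxin, from 25.5 to 251 CPM, and Irs2, an adaptor of insulin and cytokine receptors, from 18.5 to 134 CPM. The largest falls over 5 CPM were in negative regulators and other signalling genes: Ptpn6, the phosphatase SHP-1, fell from 99.6 to 22.7 CPM, Lyn, a Src family kinase, from 70.9 to 22.6 CPM, and Id1 from 19.6 to 6.42 CPM. Jak2, the kinase bound to the receptor, measured 55.2 CPM in S0 and 75.6 CPM in S1 and rose by 0.45 ± 0.06. Stat5b rose by 0.22 ± 0.07, whereas Stat5a did not pass the test at 0.20 ± 0.11.

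Of 25 erythroid transcription factors, 18 rose, 8 of them past the 2-fold test, and 6 fell, none past it; the median log2 change was 0.74. Klf1, a zinc-finger activator of red cell genes, measured 15.02, 18.1, 26.4 and 36.6 CPM in S0 and 156, 148, 145 and 143 CPM in S1, a log2 change of 2.67 ± 0.19 (adjusted p = 5.43e-07). Gata1, the lineage's main GATA factor, measured 30.7, 38.1, 60.4 and 73.7 CPM in S0 and 163, 171, 154 and 177 CPM in S1, a log2 change of 1.78 ± 0.18, and its partner Tal1 72.2, 77.95, 107 and 122 CPM in S0 and 268, 267, 256 and 262 CPM in S1, a log2 change of 1.503 ± 0.12. In all 3 the S1 samples of the lines were alike, while in S0 the EXOSC10 samples stood above the DIS3 samples. The largest rise in the list was Sox6, from 4.64 to 47.7 CPM, and Gfi1b, a repressor, rose from 30.7 to 114 CPM. The largest falls were in Nfe2, from 59.7 to 32.2 CPM, Myb, a factor of proliferating progenitors, from 517 to 284 CPM, and Cbfa2t3, a co-repressor, from 164 to 99.7 CPM.

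Gata2, Spi1, Cebpa and Runx1, factors known from other lineages or earlier cells, fell. Gata2, the GATA factor of stem cells and early progenitors, measured 86.2, 83.4, 85.03 and 90.95 CPM in S0 and 4.98, 5.12, 7.11 and 5.18 CPM in S1, a log2 change of -3.98 ± 0.10 (adjusted p = 5.73e-10). The S0 samples of both lines were alike, and so were the S1 samples apart from EXOSC10 1, which was the highest of them. Spi1, which encodes the myeloid and lymphoid factor PU.1, measured 61.4, 60.8, 32.2 and 28.2 CPM in S0 and 6.54, 4.01, 6.36 and 3.35 CPM in S1, a log2 change of -3.10 ± 0.20. Cebpa, a granulocyte lineage factor, measured 56.3, 50.7, 38.9 and 25.8 CPM in S0 and 5.47, 2.905, 4.94 and 2.51 CPM in S1, a log2 change of -3.38 ± 0.22, and Runx1, a stem cell factor, 348, 317, 293 and 268 CPM in S0 and 98.02, 103, 112 and 87.5 CPM in S1, a log2 change of -1.61 ± 0.09. None of these overlapped between fractions, and Runx1 kept a mean of 100.1 CPM in S1.

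The red cell membrane and blood group list had the highest median of the gene lists. 23 of 25 measured members rose, 20 past the 2-fold test, and 2 fell; the median log2 change was 3.06. After Rhd and Rhag, the largest rise with at least 5 CPM was Sptb, described above. Other membrane skeleton genes rose too: ankyrin Ank1 went from 59.3 to 690.2 CPM, protein 4.2 (Epb42) from 3.47 to 57.8 CPM and beta-adducin Add2 from 22.04 to 356 CPM (these were chosen for their roles after their values were seen). The anion exchanger Slc4a1, which anchors the skeleton to the membrane, went from 22.1 to 134 CPM. The members that fell were Cd47, a signal that protects cells from phagocytosis, from 315 to 210.3 CPM, and the glucose transporter Slc2a1, from 49.3 to 42.7 CPM, whose call was lost under 11 of the 19 other settings.

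Promoters were read for the 10 genes with the largest rise, the risen receptors and factors, and Dis3 and Exosc10, which also rose. They moved in the same direction, and GATA1 is known to bind the letters AGATAA or TGATAA. Of these 17 genes, 13 had a window in the RefSeq promoter table (GRCm38.p6, 250 bases before to 50 after the start), and 6 windows held such a match on either strand. They are printed with the match in capitals, which reads TTATCT or TTATCA where it lies on the opposite strand.
Rhd: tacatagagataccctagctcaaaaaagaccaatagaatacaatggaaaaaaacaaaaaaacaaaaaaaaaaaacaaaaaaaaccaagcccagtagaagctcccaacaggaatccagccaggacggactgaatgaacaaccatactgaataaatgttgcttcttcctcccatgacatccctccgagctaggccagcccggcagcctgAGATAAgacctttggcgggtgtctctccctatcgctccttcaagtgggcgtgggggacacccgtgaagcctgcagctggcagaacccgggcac
Slc30a10: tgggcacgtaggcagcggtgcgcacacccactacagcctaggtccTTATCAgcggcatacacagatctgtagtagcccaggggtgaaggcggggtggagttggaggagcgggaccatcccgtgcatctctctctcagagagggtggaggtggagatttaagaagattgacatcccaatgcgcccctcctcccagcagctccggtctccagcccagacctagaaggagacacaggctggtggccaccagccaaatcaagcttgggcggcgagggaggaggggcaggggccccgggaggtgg
Rhag: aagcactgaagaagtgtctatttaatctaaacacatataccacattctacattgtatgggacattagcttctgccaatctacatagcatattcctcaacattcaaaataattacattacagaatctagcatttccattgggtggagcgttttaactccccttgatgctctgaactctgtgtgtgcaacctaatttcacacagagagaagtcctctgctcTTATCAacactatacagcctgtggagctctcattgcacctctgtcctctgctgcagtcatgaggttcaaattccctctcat
Klf1: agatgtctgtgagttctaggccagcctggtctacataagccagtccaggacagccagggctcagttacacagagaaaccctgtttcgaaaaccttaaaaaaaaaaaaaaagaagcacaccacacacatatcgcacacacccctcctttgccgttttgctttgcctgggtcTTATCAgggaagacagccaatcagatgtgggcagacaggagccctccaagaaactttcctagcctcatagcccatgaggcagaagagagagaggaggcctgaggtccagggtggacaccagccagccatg
Epor: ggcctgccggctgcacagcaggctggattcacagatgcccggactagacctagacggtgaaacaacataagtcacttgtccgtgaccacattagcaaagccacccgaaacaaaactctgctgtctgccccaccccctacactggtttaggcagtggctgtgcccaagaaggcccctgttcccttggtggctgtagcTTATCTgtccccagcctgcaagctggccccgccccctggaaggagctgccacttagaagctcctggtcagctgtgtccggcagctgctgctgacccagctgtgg
Tal1: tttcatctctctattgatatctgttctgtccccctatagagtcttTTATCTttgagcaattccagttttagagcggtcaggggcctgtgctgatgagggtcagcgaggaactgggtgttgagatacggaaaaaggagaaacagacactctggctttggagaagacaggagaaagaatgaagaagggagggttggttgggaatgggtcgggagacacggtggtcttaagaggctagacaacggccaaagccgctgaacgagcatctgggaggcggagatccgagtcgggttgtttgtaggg
Rhd stands at chr4:134864286-134864585, Slc30a10 at chr1:185454598-185454897, Rhag at chr17:40810899-40811198, Klf1 at chr8:84901732-84902031, Epor at chr9:21963527-21963826 on the minus strand and Tal1 at chr4:115056176-115056475, the other 5 being on the plus strand; Tal1 has a second window that is not shown. The match began 43 bases before the start in Rhd, 31 in Rhag, 54 in Epor and 80 in Klf1, and 205 bases before it in both Slc30a10 and Tal1. For the named genes that fell, 14 of 20 had a window and 1 held the letters. Over the first listed window of all 27025 gene symbols, 18.95% held them, and over the 9757 protein-coding genes tested 10.2%. The share was 14.5% of 435 protein-coding genes that rose past the 2-fold test and 11.9% of 2122 that fell, 7 of 17 in the red cell membrane list, 2 of 17 in heme synthesis and 2 of 19 in the stem cell list. CCNCNCCC, the letters bound by factors of the KLF1 family, stood in 68.6% of windows of genes tested, 74.5% of those that rose and 70.8% of those that fell. A match is a description of the letters and not a site that was measured.

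Most genes of the heme synthesis list, which also holds genes of heme breakdown, rose with the membrane genes. Of 21 measured members, 17 rose, 13 of them past the 2-fold test, and 2 fell, with a median log2 change of 1.96. The largest rises were in Blvrb, a biliverdin reductase, from 17.6 to 136 CPM, and Cpox, coproporphyrinogen oxidase, from 85.8 to 606 CPM. Cpox measured 58.7, 68.4, 95.7 and 120.4 CPM in S0 and 592, 608, 573 and 648 CPM in S1, with no overlap and a log2 change of 2.87 ± 0.15. The members that fell were Hmox1, the inducible heme oxygenase, from 4.74 to 1.03 CPM, and Hmox2, from 28.97 to 15.9 CPM. Alas2, the erythroid form of the first enzyme, measured 1.97, 1.77, 6.96 and 4.59 CPM in S0 and 14.8, 14.9, 13.6 and 13.8 CPM in S1, so its level stayed low in S1 although it rose by 2.08 ± 0.29. Alas1, the form of other tissues, measured 61.05 CPM in S0 and 39.5 CPM in S1 and did not pass the test (-0.51 ± 0.24, adjusted p = 0.0858).

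Of 20 genes of iron uptake and storage, 15 rose, 8 past the 2-fold test, and 3 fell. Slc40a1, the iron exporter ferroportin, measured 15.2, 17.9, 24.1 and 25.5 CPM in S0 and 114, 116, 124 and 127 CPM in S1, a log2 change of 2.56 ± 0.10. Steap3, the reductase that frees iron in the endosome, went from 55.8 to 229 CPM. The largest falls over 5 CPM were Cyb561a3, a cytochrome b561 family reductase, from 18.3 to 6.33 CPM, and Ncoa4, the receptor for ferritin breakdown, from 21.9 to 12.7 CPM. Of 20 red cell enzymes, 14 rose, 6 past the 2-fold test, and 2 fell. Pklr, the red cell and liver pyruvate kinase, measured 21.4, 28.3, 45.99 and 68.1 CPM in S0 and 589, 621, 553 and 623 CPM in S1, the largest rise of that list (3.96 ± 0.25). Car2, carbonic anhydrase 2, went from 83.7 to 468 CPM, and Gclm, which makes glutathione, from 37.2 to 151 CPM.

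Globin genes gave little signal: of that list only Hbb-bs and Hbb-bt passed the filter on low counts. Hbb-bt measured 0.7702, 0.709, 1.57 and 1.57 CPM in S0 and 5.73, 3.87, 3.18 and 3.001 CPM in S1 and Hbb-bs 0.813, 0.962, 0.673 and 1.18 CPM in S0 and 4.82, 1.25, 2.34 and 1.69 CPM in S1. Both were higher in S1 by the test but stayed under 10 CPM in every sample. As near-identical copies they may share reads, so the split between them is uncertain, and so is their level if shared reads were dropped. Of 17 genes of terminal maturation and organelle clearance, 10 rose (58.8%, against 28.1% of all genes) and 5 fell (29.4%, against 37.6%). Trim10 rose from 1.06 to 20.5 CPM and Slc43a1, an amino acid transporter, from 26.3 to 89.8 CPM, whereas Xpo7, an exportin, fell from 147 to 52.8 CPM.

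**Figure D3:**
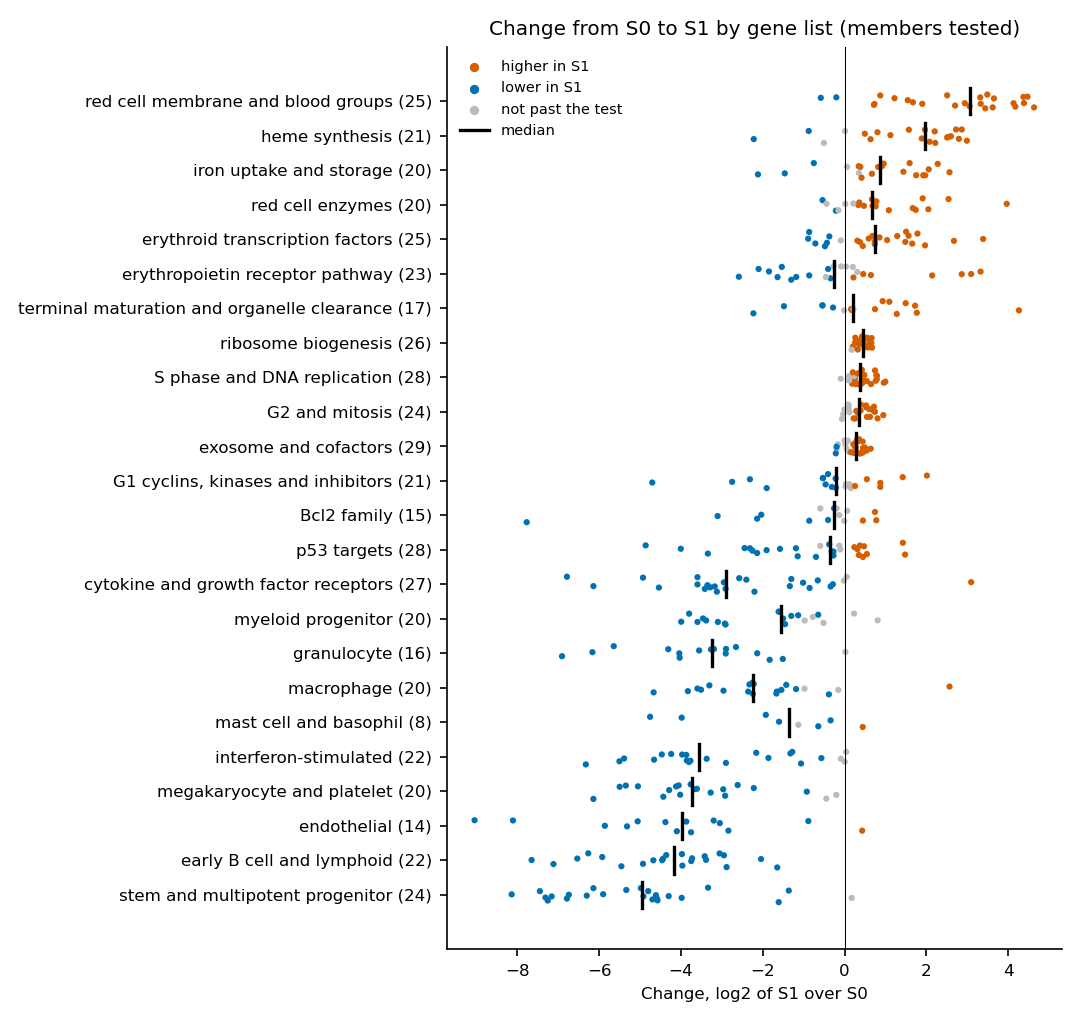
Log2 change from S0 to S1 (x axis) of each measured member of 24 gene lists, 1 point per gene, with the number measured in brackets; orange and blue points passed the test, gray points did not, and the black bar is the median. Medians run from 3.06 in the red cell membrane list to -4.95 in the stem cell list, and the ribosome, S phase and mitosis lists lie in a narrow band just above 0.

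Genes of stem and multipotent progenitor cells fell nearly without exception. 23 of 24 measured members fell, all 23 past the 2-fold test, with a median log2 change of -4.95; the other was Prom1 at 0.17 ± 0.45, which did not pass. Mecom, a zinc-finger factor of stem cells, measured 13.2, 10.4, 22.7 and 22.9 CPM in S0 and 0.0976, 0.277, 0.167 and 0.0546 CPM in S1, the largest fall with at least 5 CPM. The S1 values are near the limit of counting, while all S0 samples exceeded 10 CPM. Procr, a stem cell surface receptor, was at 0 in all S1 samples and at 1.69 CPM on average in S0, which is at least 48.8-fold lower (3 counts over the 4 S1 samples as the floor).

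Early B cell and lymphoid genes fell in 22 of 22 cases, all past the 2-fold test, with a median log2 change of -4.17. Il2rb, a chain of the interleukin 2 receptor, went from 5.58 to 0.0346 CPM, and Tcf7, a T lineage factor, from 11.4 to 0.146 CPM. Megakaryocyte and platelet genes fell in 18 of 20 cases, with a median of -3.72, among them Plek, pleckstrin, from 102 to 2.96 CPM. Gp1ba and Vwf did not pass, at -0.45 ± 0.23 and -0.20 ± 0.23. Of 13 genes of dendritic cells and antigen presentation 12 fell, led after Flt3 by Cd74, the invariant chain, from 13.1 to 0.113 CPM. The exception was Zbtb46, a zinc-finger factor, which rose from 8.21 to 63.6 CPM.

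Myeloid genes fell less evenly. Of 20 myeloid progenitor genes 15 fell, 10 past the 2-fold test, with a median log2 change of -1.55, and none rose. The summed level of the list was 3397, 3710, 1431 and 1258 CPM in S0 and 1285, 607, 1018 and 601 CPM in S1, so the DIS3 samples had more than the EXOSC10 samples in S0, and the S1 sample DIS3 1-3 overlapped with the EXOSC10 samples of S0. Irf8, a monocyte and dendritic cell factor, went from 91.6 to 6.195 CPM. The primary granule genes kept a level in S1: Elane, neutrophil elastase, measured 52.4, 55.9, 11.7 and 3.18 CPM in S0 and 56.2, 17.7, 55.4 and 25.3 CPM in S1, and Mpo, myeloperoxidase, 1687, 1946, 565 and 513 CPM in S0 and 572, 179, 405 and 172 CPM in S1. Elane overlapped between fractions and did not pass the test (0.81 ± 0.63), Prtn3 and Ctsg did not pass either (-0.78 ± 0.37 and -0.52 ± 0.50), and Mpo passed at -1.59 ± 0.40 although its fractions overlapped. The later granulocyte genes fell in 15 of 16 cases, Mmp8 from 13.04 to 0.0876 CPM and Mmp9 from 18.7 to 0.291 CPM; Fcnb did not pass, at 0.02 ± 0.45. Of 20 macrophage genes 17 fell, led by Cx3cr1, from 13.99 to 0.478 CPM, and the 1 that rose was Slc40a1, which is also in the iron list. The summed macrophage level was 135.5 to 241 CPM in S0 and 139 to 172 CPM in S1, most of the latter from Slc40a1. Without that gene the sum was 110.0 to 226 CPM in S0 and 23.1 to 47.8 CPM in S1, with no overlap. The macrophage complement genes C1qa, C1qb and C1qc lay under 2 CPM on average in S0.

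Of 8 mast cell and basophil genes 6 fell. Cpa3, a mast cell protease, went from 19.4 to 0.632 CPM, and Il1rl1, the interleukin 33 receptor, was higher in S1 at 17.3 CPM in S0 and 23.7 CPM in S1 (0.44 ± 0.10). Hepatocyte markers were low in both fractions. Of 14 hepatocyte genes 7 fell (50%, against 37.6% of all genes) and none rose. The summed level was 42.2 to 69.4 CPM in S0 and 7.75, 10.2 and 11.5 CPM in 3 S1 samples, against 76.9 CPM in EXOSC10 1. Alb, albumin, measured 2.91, 2.63, 3.59 and 8.23 CPM in S0 and 1.53, 1.66, 23.8 and 2.05 CPM in S1 and did not pass the test. Of 14 endothelial genes 13 fell, led by Tek, from 8.31 to 0.146 CPM, among those with at least 5 CPM. Plvap rose by 0.43 ± 0.15. Emcn, endomucin, was at 0 in all S1 samples, at least 89.6-fold lower than in S0. Of 5 stellate and mesenchymal genes 4 fell, with Pdgfrb, a growth factor receptor, from 25.2 to 0.556 CPM and Vim, vimentin, from 251 to 20.6 CPM. The part of these other cell types in the falls of single genes was not tested.

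Further groups fell with the immune genes. Of 22 interferon-stimulated genes 19 fell, 16 past the 2-fold test, with a median log2 change of -3.57, or -3.51 with Ifit1, which was at 0 in S1, at its bound. Irf1, an interferon-induced factor, went from 26.5 to 1.88 CPM, and Ddx58, the RNA sensor RIG-I, from 11.4 to 1.54 CPM. Ifih1, the related sensor MDA5, did not pass, at 0.04 ± 0.10. Of 24 adhesion and chemokine receptors 22 fell. Ccr2 went from 64.01 to 2.71 CPM, whereas Cd24a, a small surface glycoprotein, rose from 66.5 to 248 CPM and Itgb1, an integrin beta chain, from 169 to 276 CPM.

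Cell cycle genes rose by small amounts. Of 28 S phase and DNA replication genes 24 rose and none fell, with a median log2 change of 0.38, and of 24 G2 and mitosis genes 16 rose and none fell, with a median of 0.36. None of either list passed the 2-fold test. Cdc6, which loads the replicative helicase, measured 62.9, 60.7, 56.6 and 64.3 CPM in S0 and 122, 124, 119 and 124 CPM in S1, a log2 change of 1.00 ± 0.06, and Ccna2, cyclin A2, 149, 167, 163 and 174 CPM in S0 and 305, 324, 295 and 336 CPM in S1, a log2 change of 0.95 ± 0.06. The fractions of both genes did not overlap. The replication initiation factor gene Cdt1 rose from 122 to 212 CPM, the ribonucleotide reductase subunit Rrm2 from 125 to 244 CPM, and Mki67 from 452 to 757 CPM.

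The G1 regulators changed in both directions, as all genes did. Of 21 measured, 6 rose (28.6%, near the 28.1% of all genes) and 11 fell (52.4%, against 37.6%). Ccnd1, cyclin D1, measured 95.7, 96.8, 96.6 and 88.1 CPM in S0 and 2.67, 1.799, 5.19 and 4.501 CPM in S1, a log2 change of -4.70 ± 0.18. Ccne1, cyclin E1, measured 29.4, 33.8, 33.2 and 38.5 CPM in S0 and 139.7, 133, 122 and 149 CPM in S1, a log2 change of 2.01 ± 0.09. Both separated all S0 from all S1 samples, in opposite directions. The inhibitor Cdkn1a, known as p21, went from 9.59 to 1.91 CPM and Cdkn2d from 14.1 to 3.56 CPM, while Cdkn2c, the inhibitor p18, rose from 2.96 to 7.86 CPM. Cdk6, the main kinase partner of the D cyclins in blood progenitors, went from 699 to 485 CPM, a fall of less than 2-fold that was chosen for mention after its values were seen.

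Among 15 genes of the Bcl2 family, which govern cell death, 7 fell (46.7%, against 37.6% of all genes) and 3 rose (20%, against 28.1%). Bcl2, a survival gene, measured 62.6, 54.4, 54.4 and 51.8 CPM in S0 and 5.43, 6.502, 6.78 and 7.31 CPM in S1, a log2 change of -3.10 ± 0.11, and the death gene Pmaip1, known as Noxa, went from 15.3 to 3.18 CPM. Bcl2l1, the survival gene for Bcl-xL, went from 38.95 to 21.4 CPM. Bcl2l11, known as Bim, rose from 25.7 to 43.8 CPM, Bnip3l from 58.4 to 97.1 CPM and Bax from 25.6 to 34.8 CPM. Of 28 p53 targets 16 fell (57.1%) and 9 rose (32.1%, near the 28.1% of all genes). Among them Plk2 went from 13.9 to 0.475 CPM and Sesn2, a stress sensor, from 8.87 to 23.8 CPM.

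Most ribosome biogenesis genes rose by small amounts, while metabolic genes changed in both directions. Of 26 ribosome biogenesis genes 25 rose, none past the 2-fold test, with a median log2 change of 0.45, and the largest were Nolc1, from 89.2 to 142 CPM, Nhp2, from 25.6 to 40.8 CPM, and Rrn3, from 76.1 to 119.8 CPM. Of 77 ribosomal protein genes 45 rose and 1 fell, with a median of 0.23. Of 21 nucleotide synthesis genes 16 rose, led by Mthfd1, a folate enzyme, from 117 to 300.2 CPM, and 2 fell, Shmt1 from 78.4 to 29.6 CPM and Impdh1 from 50.2 to 22.8 CPM. Of 18 integrated stress response genes 12 rose, led by Asns, asparagine synthetase, at 32.3, 38.3, 57.3 and 63 CPM in S0 and 284, 284, 294 and 332 CPM in S1. All 4 S1 samples of Asns were above every S0 sample, a log2 change of 2.69 ± 0.13. Of 21 glycolysis genes 7 rose (33.3%) and 9 fell (42.9%), near the 28.1% and 37.6% of all genes. Pkm, the pyruvate kinase of most tissues, fell from 262 to 90.95 CPM and Hk2 from 98.8 to 36.1 CPM. Pfkm rose from 31.6 to 99.7 CPM and Hk1 went from 173 to 360.3 CPM, as Pklr rose. Of 20 cholesterol synthesis genes 7 rose (35%) and 6 fell (30%), also near the shares of all genes, and none passed the 2-fold test.

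Of 26 chromatin regulators 11 fell (42.3%, near the 37.6% of all genes), 5 of them past the 2-fold test, and 3 rose (11.5%, against 28.1%). Satb1, a chromatin organizer of lymphoid and stem cells, went from 131 to 5.6 CPM, the methylcytosine oxidase Tet1 from 57.6 to 8.07 CPM, and the DNA methyltransferase Dnmt3b from 163 to 25.2 CPM. Dnmt1, the maintenance methyltransferase, did not pass at -0.09 ± 0.06. Of 17 RNA-binding and isoform regulators 7 rose (41.18%, against 28.1% of all genes) and 6 fell (35.29%, near the 37.6% of all genes). Past the 2-fold test 1 rose and 5 fell, and the median log2 change of the list was -0.00616. Hmga2, a fetal chromatin protein counted in that list, measured 242, 240.0, 226 and 218 CPM in S0 and 8.23, 7.61, 13.5 and 9.55 CPM in S1, a log2 change of -4.59 ± 0.14, and Igf2bp2 went from 55.8 to 4.34 CPM. In the other direction, the log2 change of Pabpc4 was 1.2096 to 1.5025 and that of Cpeb4 0.8755 to 1.1064 over the settings tried. Lin28b, a fetal RNA-binding protein, measured 98.5 CPM in S0 and 137 CPM in S1, a log2 change of 0.48 ± 0.05.

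The ribonuclease genes after which the lines are named were measured in these wild types. Dis3 stood at 46.7, 46.2, 55.8 and 65.3 CPM in S0 and 63.01, 65.2, 74.7 and 89.1 CPM in S1 and Exosc10 at 61.7, 61.9, 57.2 and 65.3 CPM in S0 and 76.8, 74.3, 71.98 and 74.4 CPM in S1. The log2 changes were 0.45 ± 0.07 and 0.27 ± 0.06 (adjusted p = 2.46e-04 and 0.00155), with overlapping fractions in Dis3 and separate ones in Exosc10. Of 29 genes listed for the RNA exosome and its cofactors 19 rose and 2 fell, none past the 2-fold test, with a median of 0.27. Mphosph6, an exosome cofactor, rose from 11.4 to 17.9 CPM and the helicase Mtrex from 83.8 to 122 CPM. The 2 listed genes that fell were Exosc5 and Mpp6 (-0.22 ± 0.06 and -0.20 ± 0.05). Mpp6 is in these counts by its symbol only, since in mouse it names a membrane scaffold gene and not an exosome cofactor.

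Of 910 long non-coding RNAs tested, 139 rose (15.3%, against 28.1% of all genes) and 326 fell (35.8%, near the 37.6% of all genes). Past the 2-fold test 47 rose (5.165%, against 4.17% of all genes) and 173 fell (19.01%, near the 20.4% of all genes). The smaller share of rises was thus not seen in the 2-fold test. Among those with a mean of at least 5 CPM in the higher fraction, the largest rise was Redrum, an erythroid long non-coding RNA, at 0.513, 0.354, 0.785 and 1.098 CPM in S0 and 23.9, 26.1, 20.4 and 24.7 CPM in S1. Its log2 change was 5.09 ± 0.22 (adjusted p = 1.48e-08), and every S1 sample was above 20 CPM against a much lower level in every S0 sample. Next were Gm26513, from 1.999 to 11.1 CPM, 4933431E20Rik, from 5.58 to 26.7 CPM, Gm37529, from 1.76 to 7.84 CPM, and 1700001L05Rik, from 3.003 to 12.5 CPM. Gm19590 went from 8.58 CPM in S0 to 0 in 3 S1 samples and 0.0651 CPM in the other. The falls that followed were 2610307P16Rik, from 10.8 to 0.125 CPM, Mir99ahg, the host of the microRNA genes of the miR-99a group, from 6.45 to 0.135 CPM, Gm10384, from 6.95 to 0.136 CPM, and C030034L19Rik, from 17.6 to 0.491 CPM.

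Of 22 known nuclear and imprinted long RNAs 8 rose (36.4%) and 7 fell (31.8%), near the 28.1% and 37.6% of all genes. H19, an imprinted growth-related RNA, went from 78.3 to 17.3 CPM, and Neat1, the scaffold of paraspeckles, measured 209, 172, 290.0 and 107 CPM in S0 and 30.2, 32.6, 75.4 and 39.03 CPM in S1. The fractions of Neat1 were separate, a log2 change of -2.19 ± 0.32. Pvt1, which neighbours Myc, rose from 10.5 to 28.3 CPM. Airn rose from 1.996 to 6.69 CPM, with the limit that its transcript overlaps Igf2r on the opposite strand and the strand setting of the counting is not given in the sources used here.

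Of 153 snoRNA and scaRNA genes 33 rose (21.6%) and 10 fell (6.54%), below the 28.1% and 37.6% of all genes. Snord34 rose from 4.12 to 9.01 CPM. Scarna2 fell from 108 to 58.3 CPM on average, with overlapping fractions. Of 60 replication-dependent histone genes 13 rose (21.7%) and 3 fell (5%), also below the shares of all genes. Of 20 genes of the mitochondrial genome 11 fell (55%, against 37.6% of all genes) and none rose. The summed level was 4309 to 11700 CPM in S0 and 3683 to 5110 CPM in S1, with the highest value in the S0 sample DIS3 1-3. mt-Cytb passed the test at -0.76 ± 0.25, a call lost under 3 of the other settings.

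Reads on microRNA genes count precursor or host RNA, not mature microRNA. Of 38 tested 3 rose and 6 fell, smaller shares than the 28.1% and 37.6% of all genes. The mature sequences of 4 that fell, without overlap between the fractions, are shown to compare their seeds, and none shares a seed (bases 2 to 8, in capitals) with another, and both arms of miR-23a are given. They are from the RefSeq microRNA table, GRCm38.p6.
mmu-miR-763: cCAGCUGGgaagaaccaguggc
mmu-miR-23a-5p: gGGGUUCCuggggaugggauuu
mmu-miR-23a-3p: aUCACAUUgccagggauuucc
mmu-miR-1962: aGAGGCUGgcacugggacacau
mmu-miR-1955-5p: aGUCCCAGgaugcacugcagcuuuu
Mir763 (chromosome 10, 120447991 to 120448110) had 107 counts over the S0 samples and 6 over the S1 samples, a log2 change of -4.24 ± 0.50 (adjusted p = 2.33e-05), and lies on the same strand within Hmga2, which fell as well. Mir23a (chromosome 8, 84208518 to 84208592) had 37 and 3 counts, and no annotated gene spans it. Mir1962 (chromosome 7, 135566162 to 135566282) had 131 and 28 counts and lies within Ptpre, and Mir1955 (chromosome 2, 92191977 to 92192074) had 48 and 13 counts and lies within Phf21a, both on the host's strand. Mir5125, within Srrm2, also fell without overlap, but its change was smaller (-0.495 ± 0.16, 384 and 297 counts) and its sequence is not shown.

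The step was then compared between the lines. It differed, by the test of the line by fraction interaction, in 73 genes: in 55, or 0.344% of those tested, the log2 step was lower in the EXOSC10 line, and in 18, or 0.113%, higher. 49 of the 55 were genes that rose in the step as a whole, and 15 of the 18 were genes that fell. The red cell membrane list held 10 of the 55, among 25 members. The 5 genes with the smallest p were Msh5, Rhag, Slc26a1, Kcnn4 and Sptb. Rhag differed by -1.66 ± 0.14 on the log2 scale and Sptb by -1.04 ± 0.11, with the S0 values above higher in EXOSC10 and the S1 values alike. Kcnn4, a potassium channel of red cells, measured 35.7, 36.7, 68.3 and 73.5 CPM in S0 and 157, 164, 158 and 159 CPM in S1, a difference of -0.99 ± 0.10, and follows the same order. Slc26a1, a sulfate transporter, measured 1.75, 2.13, 9.87 and 13.6 CPM in S0 and 83.6, 86.05, 121 and 132 CPM in S1, a difference of -2.08 ± 0.21, and was higher in the EXOSC10 line in both fractions. Msh5, a meiotic mismatch repair protein, measured 40.9, 36.5, 6.39 and 5.96 CPM in S0 and 4.82, 4.84, 5.11 and 4.61 CPM in S1, a difference of 2.65 ± 0.20, so its fall was seen in the DIS3 line and its EXOSC10 samples were near the S1 level in both fractions.

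The same order was seen in Epor (-1.02 ± 0.16, adjusted p = 0.0337), Gata1 (-0.98 ± 0.17), Klf1 (-1.04 ± 0.19) and Tal1 (-0.66 ± 0.11), while Il7r differed in the other direction (2.43 ± 0.43). Values of the lists moved with the line in S0. The summed red cell membrane level was 1053 and 1159 CPM in the DIS3 samples and 1306 and 1491 CPM in the EXOSC10 samples, and the granulocyte level 1112 and 1373 CPM against 513 and 265 CPM. In S1 the membrane level was 4677 to 4902 CPM in all samples. Their part in the 73 differences was not tested, and the line and the sex-linked RNA described above cannot be told apart. The number moved by over 1.5 times when single samples were left out: without DIS3 S0 1-3 it was 10, without DIS3 S1 1-3 6, without DIS3 S1 2 4, without EXOSC10 S0 1 332, without EXOSC10 S0 2-3 18, without EXOSC10 S1 1 8 and without EXOSC10 S1 2-3 7.

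**Figure D4:**
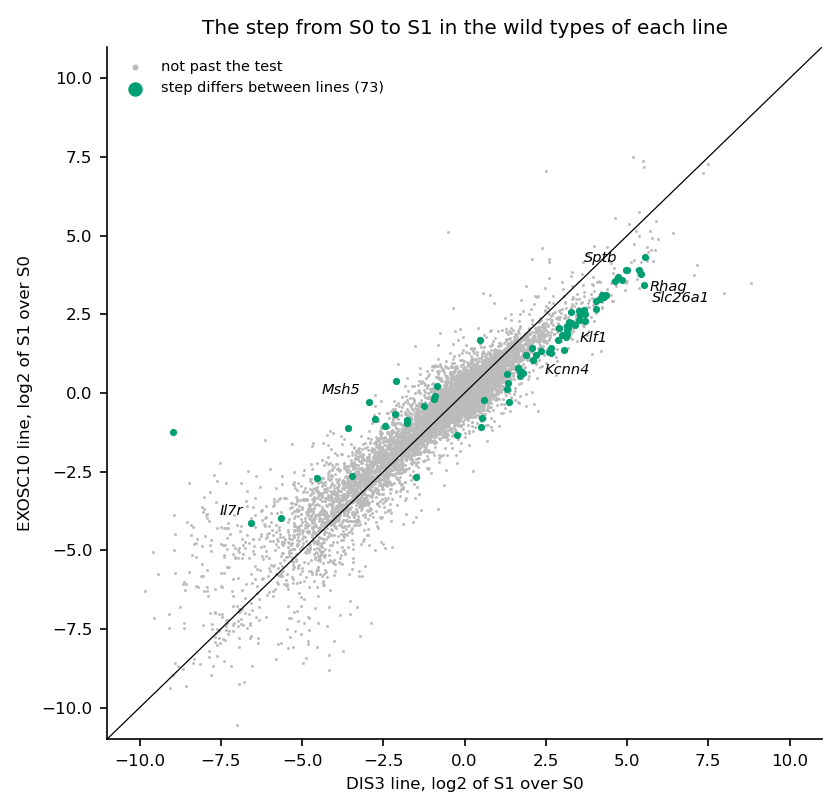
Log2 change from S0 to S1 in the DIS3 line alone (x axis) and in the EXOSC10 line alone (y axis) for the 14797 genes with a value in both; green points are the 73 genes whose step differed between the lines and the line marks equal steps. Rhag, Sptb, Slc26a1, Klf1 and Kcnn4 lie below the line, with a smaller rise in the EXOSC10 line, and Msh5 and Il7r lie above it.

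Finally the step was set against the next one, S1 to S2, as the difference of both log2 steps in 1 fit of 12 samples. Of 16215 genes tested, 3231 (19.9%) had a positive difference, a step from S0 to S1 that was higher than the next, and 3404 (21.0%) a negative one. Both steps share the S1 samples, so only the contrast itself was tested. The red cell membrane list had 20 of 25 members with a positive difference, heme synthesis 16 of 21, erythroid transcription factors 17 of 25 and ribosome biogenesis 26 of 26. The stem and multipotent progenitor list had 21 of 24 members with a negative difference, cytokine and growth factor receptors 20 of 27, and macrophage genes 21 of 22. Genes already near the limit of counting in S1, such as Mecom and Procr, had almost no room to fall further in S2. For such genes a negative difference follows from the fall in the first step, and says nothing about the next. How many members of these lists were near that limit was not tested.

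The 5 genes with the smallest p were Camsap2, C1qtnf12, Ttyh3, Cpd and Paqr9. Camsap2, which binds microtubule minus ends, averaged 11.1, 143, 234, 389 and 179.8 CPM in S0, S1, S2, S3 and S4+S5, on the scaling over all 20 WT sorted samples. On the log2 scale its rise was larger in the first step, a difference of 2.98 ± 0.09. Cpd, carboxypeptidase D, averaged 47.8, 231, 326, 188 and 72.2 CPM in S0, S1, S2, S3 and S4+S5, with its highest mean in S2. C1qtnf12 and Paqr9 also had a positive difference (2.53 ± 0.10 and 4.22 ± 0.21), and Ttyh3, a chloride channel, a negative one (-2.13 ± 0.10).

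Kit and Myb fell mainly later. Kit averaged 280.0, 228, 59.7, 8.46 and 56.7 CPM in S0, S1, S2, S3 and S4+S5, a difference of 1.65 ± 0.10 (adjusted p = 2.74e-07), and Myb 411, 234, 68.9, 15.1 and 84.4 CPM in S0, S1, S2, S3 and S4+S5, a difference of 0.95 ± 0.09. Both means were lowest in S3. Slc4a1 averaged 17.6, 110.3, 1101, 20370.0 and 50780.0 CPM in S0, S1, S2, S3 and S4+S5, so its S1 level was a small share of the later ones. Flt3 averaged 95.9, 0.875, 0.483, 0.583 and 12.3 CPM in S0, S1, S2, S3 and S4+S5, so it stayed under 1 CPM in S1, S2 and S3, and it was higher again in S4+S5.

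**Figure D5:**
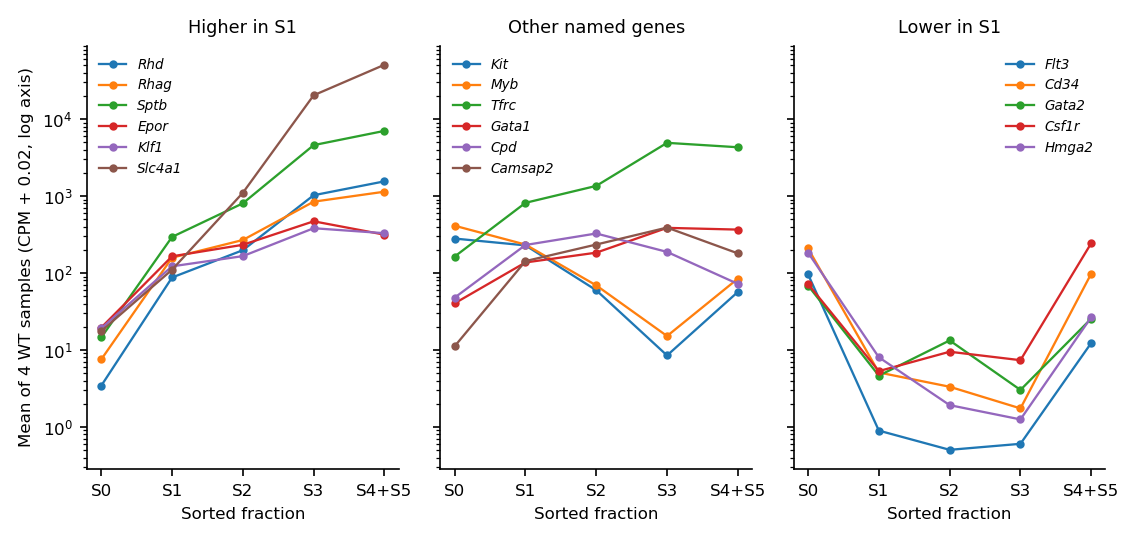
Mean level over the 4 WT samples of each of the 5 sorted fractions (y axis, CPM plus 0.02 on a log axis, scaled over all 20 WT sorted samples) for 17 genes. The genes on the left rose from S0 to S1 and mostly went on rising, those in the middle changed slope or direction after S1, and those on the right fell in the first step and were higher in S4+S5 than in S3.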

How the data were processed

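Total RNA from sorted wild-type fetal liver cells was measured by RNA-seq. The authors deposited raw read counts per gene for each library. The build GRCm38 and the tools featureCounts 1.6.4, Subread, HISAT2 2.1.0, DESeq2 1.20.0 and R 3.5.1 are listed, with no role, per the submitters' processing notes; the annotation release and the strand setting are not given in the sources used here, so overlapping and antisense genes are uncertain. Of 49585 gene identifiers 49326 matched the GRCm38 annotation, and the other 259 held 0.0465% of counts.

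Near-identical libraries were summed. Counts of 8 samples were filtered (filterByExpr), scaled by TMM and tested with edgeR 4.0.16 (R 4.3.3, limma 3.58.1), by its quasi-likelihood test with line as a covariate, and by its test against a log2 change of 1, with Benjamini-Hochberg adjustment over all genes. The line by fraction interaction and the contrast of successive steps were tested the same way, and the fit of the step was tested on simulated counts. DESeq2 1.42.0 was an alternative. Other alternatives were another scaling, other filters, each sample left out, each line alone, all wild-type fractions in 1 fit and a replicate block.

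Named genes were the 10 largest rises and falls among protein-coding genes (2-fold test, no overlap, at least 20 CPM) and the 5 largest rises and falls among long non-coding RNAs (at least 5 CPM). Added to these were the 5 smallest p-values of each other comparison and up to 3 per direction in each list (at least 5 CPM). A set of receptors and factors, Dis3 and Exosc10 were always named. Other genes were named for their roles after their values were seen. Some genes that the rule names are not reported here. The members and lists were chosen with earlier results of these data known.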

Additional observations from a re-analysis of the deposited data

Results flagged for a closer look

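Of 464 groups of 4 samples of the named genes, 24 had 1 sample far from the others by Dixon's test, and chance flags about 1 in 20 groups. In S0 the sample that stood out on the high side was EXOSC10 2-3 for Cldn13 at 2.94 CPM, Slc43a1 at 31.8 CPM and Tet1 at 68.7 CPM, EXOSC10 1 for Bcl2l11 at 31.6 CPM, DIS3 2 for Il1rl1 at 18.4 CPM and DIS3 1-3 for mt-Rnr1 at 523 CPM. On the low side of S0 it was EXOSC10 2-3 for Pdgfrb at 20.7 CPM, Ccnd1 at 88.1 CPM and Cdkn1a at 7.72 CPM, DIS3 2 for Hoxa9 at 18.6 CPM and Snord43 at 2.13 CPM, and DIS3 1-3 for Mtrex at 75.1 CPM. In S1 the high sample was EXOSC10 2-3 for Rhd at 122 CPM, EXOSC10 1 for Gata2 at 7.11 CPM and Dusp1 at 36.8 CPM, DIS3 1-3 for Gm19590 at 0.0651 CPM and DIS3 2 for Mir99ahg at 0.277 CPM. The low S1 sample was DIS3 1-3 for Epor at 188 CPM, Zbtb46 at 53.1 CPM and Snord34 at 8.33 CPM, DIS3 2 for Cyb561a3 at 4.70 CPM, EXOSC10 1 for Car2 at 399 CPM and Mthfd1 at 272 CPM, and EXOSC10 2-3 for Lss at 40.7 CPM.

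The step differed between the lines, by the interaction test, for Msh5 by 2.65, Rhag by -1.66, Slc26a1 by -2.08, Kcnn4 by -0.99 and Sptb by -1.04 on the log2 scale (EXOSC10 minus DIS3).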

How the results depend on the processing

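The number of genes changed, 10491, lay between 7689 and 11800 under the other settings, and the number past the 2-fold test, 3930, between 2644 and 4597. The 73 genes whose step differed between the lines became 589 with no filter on low counts, 176 with DESeq2, 888 with every library as its own sample, 172 with all wild-type fractions in 1 fit, and 4 to 332 when 1 sample was left out. The contrast with the next step, 6635 genes, became 4002 in the EXOSC10 line alone. The cause was not tested. With the replicate number as a replicate block the counts were 10276, 3876, 351 and 6354. The numbers were not taken as pairing the samples, since the evidence is split. Same-numbered samples correlated at -0.15 in the DIS3 line and 0.54 in the EXOSC10 line. Within each line the same replicate numbers formed the near-identical pair in all 5 WT fractions, which goes with pairing. Whether the numbers mark shared embryos was not tested. With the DIS3 numbers crossed the first counts were 10503 and 3891. Of 4408 values of 232 named genes under other settings, 4322 kept their direction and side of the threshold, 86, in 20 genes, fell short of it, and 0 reversed. Of 1824 values of 96 list counts under other settings, 144, in 38 of the counts, moved by over 1.5 times or away from 0.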

Other observations

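Of 13 genes tied to glucocorticoid response and erythroid progenitor self-renewal, 4 rose (30.8%, near the 28.1% of all genes) and 9 fell (69.2%, against 37.6%). Klf9, a glucocorticoid-induced factor, had a log2 change of 2.1 ± 0.14 and Nr3c1, the glucocorticoid receptor, of 0.57 ± 0.07, while Tsc22d3, known as GILZ, had -1.88 ± 0.16 and Id2, an inhibitor of helix-loop-helix factors, -4.46 ± 0.26. Of 11 complement and scavenger receptor genes 9 fell and 1, Scarb1, the receptor for high-density lipoprotein, rose, with a log2 change of 0.47 ± 0.06. Of 5 eosinophil genes 2 fell (40%, near the share of all genes) and none rose.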
